A study of Mus musculus with 16 samples.

Results

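The transcription factors described here are 9 genes that act in glial fate and forebrain patterning, namely Olig1, Olig2, Nfia, Nfib, Nfix, Lhx2, Zbtb20, Pax6 and Emx2. They were taken by symbol, and all 9 were found among the 24060 genes of every library. Ribosome-bound RNA was measured by RNAseq in mice of the genotype Aldh1l1CreERT2-RiboTag, on the C57BL/6J background. Tamoxifen at 2 months of age switches on an HA tag on the ribosomal protein Rpl22 in cells that use the astrocyte promoter Aldh1l1, and the somatosensory cortex was collected at 3 months. These ages are those of the labels, and the study's methods give a shorter interval between tamoxifen and the experiment.

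The study has 4 groups of 4 libraries each, and every mouse carried the tag and received tamoxifen. Naïve mice stayed in the home cage. Stressed mice swam for 20 min in a bucket of water and then rested for 90 min in the home cage. From both, the immunoprecipitate (IP) holds RNA pulled down with the tagged ribosomes, and the INPUT is RNA of the cleared lysate, which comes from all cell types of the tissue. The replicates are numbered as in the labels: 2, 8, 11 and 13 for naïve IP, 4, 5, 6 and 15 for stress IP, 3, 7, 14 and 16 for naïve INPUT, and 1, 9, 10 and 12 for stress INPUT. The labels do not tie an IP library to the INPUT of the same mouse, so the libraries were treated as unpaired. The study used 4 males and 4 females, with no sex given per library. It took IP and INPUT from the same lysate of each mouse, so libraries of the 2 fractions are not independent. Tests that compare or pool the fractions do not take this into account. The tag is switched on only in cells in which the Aldh1l1 promoter is active when tamoxifen is given. RNA of other cells that binds to the beads may stay in the IP.

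Olig1 and Olig2 are basic helix-loop-helix factors that specify the oligodendrocyte lineage, and Olig2 is also made in some astrocytes. Nuclear factor I proteins, among them Nfia, Nfib and Nfix, bind DNA as dimers and switch on astrocyte genes as radial glia, the progenitors of the developing cortex, turn from making neurons to making glia. Lhx2, Pax6 and Emx2 are homeobox factors that pattern the early cortex and keep radial glia dividing, and Zbtb20 is a zinc finger repressor that acts in hippocampal patterning and in astrocyte formation.

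On the GRCm38 build, Olig2 lies on chromosome 16 from 91225457 to 91228677 and Olig1 on the same strand from 91269772 to 91271933, with 41.1 kb between them. Zbtb20 lies on chromosome 16 as well, from 42875881 to 43642602. Nfia spans 97772734 to 98118874 and Nfib 82290173 to 82705750, both on chromosome 4, and Nfix spans 84699876 to 84800344 on chromosome 8. Lhx2 is at 38339281 to 38369733 and Pax6 at 105668900 to 105697364 on chromosome 2, and Emx2 is at 59458372 to 59465357 on chromosome 19. RNA of an antisense gene that overlaps exons cannot be told apart from the member, since the strand setting of the counting is not given in the sources used here. Emx2 shares 264 exonic bases with its antisense gene Emx2os, which had 2.03 to 9.04 CPM across the libraries (CPM, reads scaled to a common library total), and no other member shared more than 4 exonic bases with an opposite-strand gene in the tables.

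The sequence just before the annotated start is shown for Olig2, the member with the largest difference between stressed and naïve IP, and for Lhx2 and Pax6, members whose unadjusted p in that comparison was also under 0.05 and whose annotated start, as that of Olig2, lies in a RefSeq window. They are from RefSeq (GRCm38.p6), where 7 of the 9 members have a window of 300 bases around a start. All 3 are on the plus strand, at chr16:91225300-91225456, chr2:38339031-38339280 and chr2:105668646-105668899, and capitals mark the core TTGGC of the nuclear factor I site on either strand.
Olig2: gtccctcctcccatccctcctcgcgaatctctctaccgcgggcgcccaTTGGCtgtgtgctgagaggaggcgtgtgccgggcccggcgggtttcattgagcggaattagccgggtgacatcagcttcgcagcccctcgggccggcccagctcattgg
Lhx2: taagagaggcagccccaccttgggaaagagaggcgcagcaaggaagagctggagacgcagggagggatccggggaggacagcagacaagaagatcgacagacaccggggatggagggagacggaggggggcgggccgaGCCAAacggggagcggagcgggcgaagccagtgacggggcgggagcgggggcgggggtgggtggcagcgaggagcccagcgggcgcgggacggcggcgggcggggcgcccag
Pax6: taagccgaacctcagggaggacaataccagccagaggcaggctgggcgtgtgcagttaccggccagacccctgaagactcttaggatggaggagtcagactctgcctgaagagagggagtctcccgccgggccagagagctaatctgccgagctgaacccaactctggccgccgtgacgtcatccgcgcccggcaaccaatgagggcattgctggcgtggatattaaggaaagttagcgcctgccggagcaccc
The Olig2 stretch of 157 bases held 1 such core, the Lhx2 stretch of 250 bases held 1, read as GCCAA on the plus strand, and the Pax6 stretch of 254 bases held 0. The whole windows of 300 bases, which run past these starts, held 3 for Olig2, 1 for Lhx2 and 0 for Pax6. Such a match was common, since 46.7% of 32851 RefSeq windows of 300 bases held 1 or more. The E box CANNTG, the motif of helix-loop-helix factors, was in 72.3% of those windows, and the glucocorticoid response element, searched as its palindrome, was in 0.475%. Neither was found in the 3 stretches shown, searched on both strands.

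Reads counted on genes numbered 16392876 to 25814364 per library, at which 3 reads correspond to at most 0.183 CPM, and the members lay well above this in all 16 libraries. The 10 genes with most reads took 18.1% to 19.6% of each IP library against 3.65% to 3.92% of each INPUT library, so a CPM in IP and a CPM in INPUT are shares of pools of different composition. Summed over 10 astrocyte markers, the level was 91821 to 103814 CPM in IP and 5556 to 6455 CPM in INPUT. Summed over 8 neuron markers it was 370 to 586 CPM in IP and 10295 to 12014 CPM in INPUT. In bulk samples, fewer cells of a type and less RNA per cell cannot be told apart.

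The first question was which factors are enriched on astrocyte ribosomes. In naïve mice 8 of the 9 factors were higher in IP than in INPUT, from 2.33-fold for Olig2 to 13.5-fold for Zbtb20, whereas Nfix did not pass the test. Of all 13339 genes tested, 23.7% were called higher in IP (limma with Benjamini-Hochberg adjustment, adjusted p under 0.05), and 64.0% were called lower, that is 3158 and 8540 genes. With median ratio scaling these counts were 5589 and 5642, since that scaling moves the median gene to 0. The median log2 ratio was 1.99 over the members and -0.64 over all genes. The IP and INPUT libraries did not overlap for 7 of the 9 members, all higher in IP, against 22.4% of genes, and those that overlapped were Olig2 and Nfix.

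**Figure D1:**
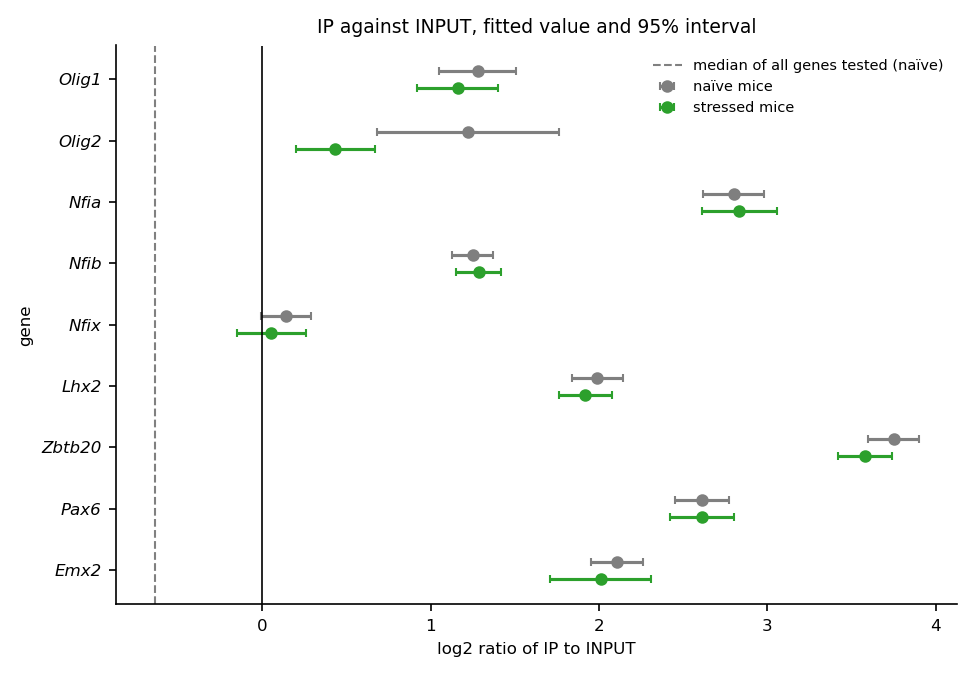
Fitted log2 ratio of IP to INPUT (horizontal axis) for each factor (vertical axis), with its 95% interval, in naïve mice (grey) and stressed mice (green), 4 libraries per group. Zbtb20 is farthest to the right, Nfix lies closest to 0, Olig2 is the member whose point moves most between naïve and stressed mice, and the dashed line marks the median of all genes in naïve mice, -0.64.

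All 4 patterning factors were higher in IP. Zbtb20 was at 235, 257, 261 and 276 CPM in naïve IP and at 19.3, 20.3, 19.3 and 17.2 CPM in naïve INPUT. Its log2 ratio was 3.75 (SE 0.07, adjusted p = 1.7e-14, limma). Every IP library was thus above every INPUT library by a wide margin. Pax6 was at 70.5, 63.7, 61.1 and 67.2 CPM in naïve IP and at 11.3, 10.3, 10.5 and 10.5 CPM in naïve INPUT, a 6.11-fold ratio (log2 2.61, SE 0.07, adjusted p = 5e-13, limma). Emx2 was at 65.3, 69.5, 64.6 and 71.7 CPM in naïve IP and at 17.1, 14.3, 15.6 and 15.8 CPM in naïve INPUT, a 4.30-fold ratio (log2 2.11, SE 0.07, adjusted p = 4.9e-12, limma). The spread within either fraction was small beside these differences. Emx2os itself was 2.47-fold higher in naïve IP than in naïve INPUT (log2 1.30, SE 0.17), on the same side as Emx2. Lhx2 was at 265, 253, 281 and 258 CPM in naïve IP and at 66.7, 58.5, 73.4 and 67.5 CPM in naïve INPUT, a 3.98-fold ratio (log2 1.99, SE 0.07, adjusted p = 4.5e-12, limma).

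The nuclear factor I genes differed from each other. Nfia was at 350, 391, 411 and 427 CPM in naïve IP and at 53.4, 65.6, 51.0 and 56.8 CPM in naïve INPUT, a 6.96-fold ratio (log2 2.80, SE 0.08, adjusted p = 8.8e-13, limma). Nfib was at 453, 482, 475 and 526 CPM in naïve IP and at 201, 212, 195 and 204 CPM in naïve INPUT, a 2.38-fold ratio (log2 1.25, SE 0.05, adjusted p = 6e-11, limma). Both genes had IP libraries above all INPUT libraries. Nfix was at 268, 285, 303 and 334 CPM in naïve IP and at 259, 287, 257 and 273 CPM in naïve INPUT, so the fractions overlapped. Its log2 ratio was 0.14 (95% interval -0.01 to 0.29, adjusted p = 0.066, limma). The ratio of Nfia to Nfix CPM within a library was 1.33 ± 0.0431 in naïve IP and 0.210 ± 0.0131 in naïve INPUT (SD, n = 4, exact permutation p = 0.029, two-sided, the smallest p that 4 against 4 libraries allow). The place of Nfix depended on the scaling: with median ratio scaling, which brings the median of all genes to 0, its log2 ratio was 0.78 (adjusted p = 8e-07, limma), and with quantile normalization it was 0.50 (adjusted p = 8.3e-06, limma). It also passed on leaving out naïve IP replicate 2 (0.19, adjusted p = 0.019, limma) or naïve INPUT replicate 7 (0.17, adjusted p = 0.042, limma). The fourth gene of the family, Nfic, was at 104, 109, 131 and 137 CPM in naïve IP and at 85.3, 105, 84.9 and 103 CPM in naïve INPUT (log2 ratio 0.34, SE 0.10, adjusted p = 0.0057, limma).

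The Olig genes were also higher in IP. Olig1 was at 147, 143, 99.9 and 141 CPM in naïve IP and at 53.4, 58.6, 51.5 and 52.8 CPM in naïve INPUT, a 2.43-fold ratio (log2 1.28, SE 0.11, adjusted p = 6e-08, limma). Olig2 was at 68.6, 64.2, 29.0 and 85.0 CPM in naïve IP and at 24.4, 30.5, 21.9 and 22.5 CPM in naïve INPUT. Naïve IP replicate 11, at 29.0 CPM, lay within the INPUT range, while the other 3 naïve IP libraries were above all INPUT libraries. The log2 ratio of Olig2 was 1.22 (SE 0.25, 95% interval 0.68 to 1.76, adjusted p = 0.00044, limma), with an exact permutation p of 0.057 (two-sided, 4 against 4 libraries). Without naïve IP replicate 11 it was 1.55 (SE 0.12, adjusted p = 2.4e-08, limma). Olig3, the third gene of the family, had 0 reads in all 16 libraries.

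**Figure D2:**
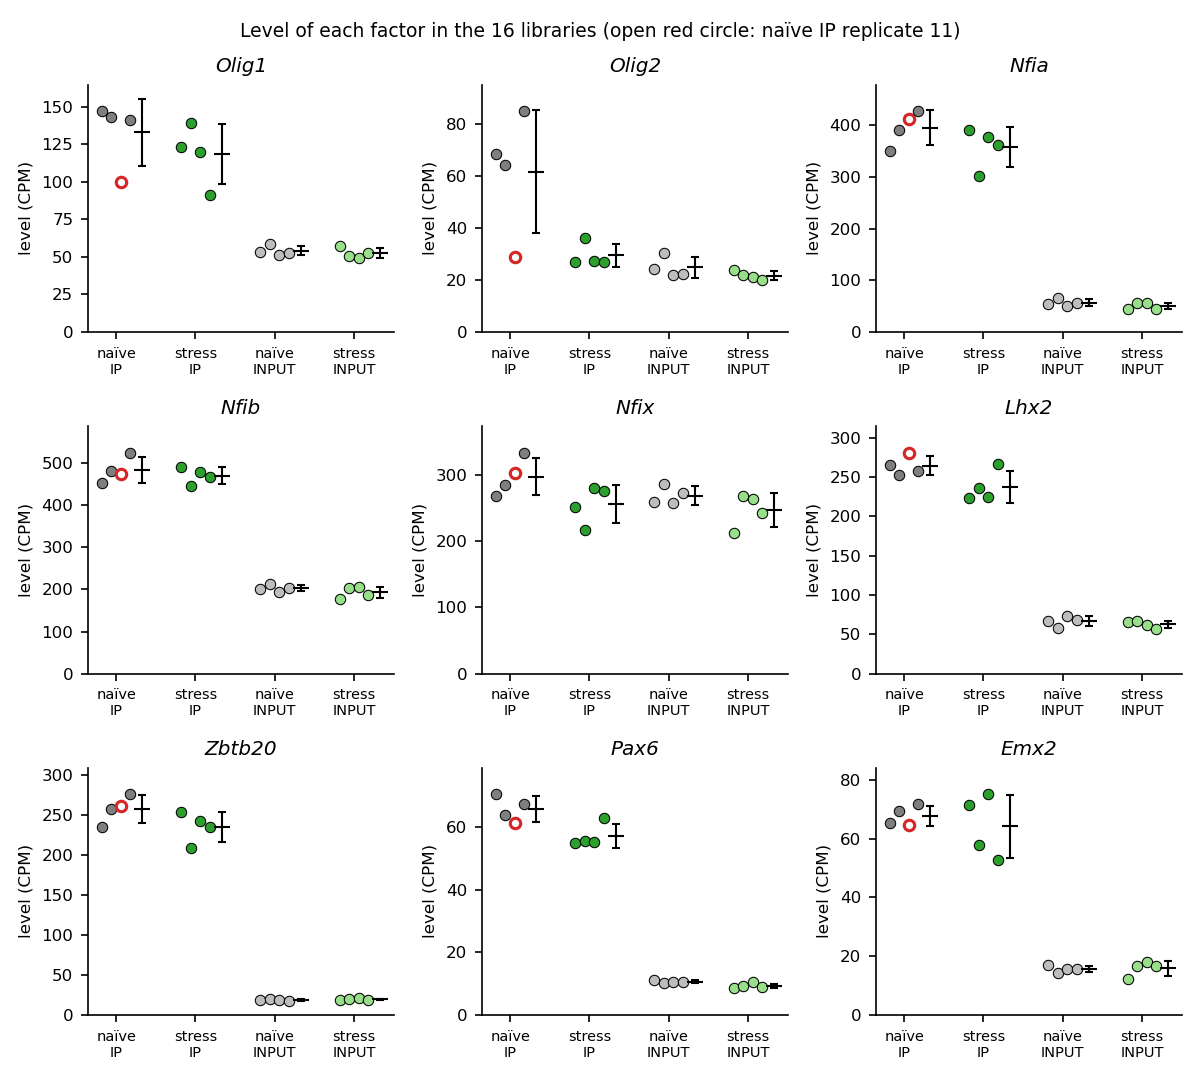
CPM of each factor (vertical axes, starting at 0) in the 4 groups, with 1 point per library and the mean ± SD beside each group, n = 4. Naïve IP replicate 11 is drawn as an open red circle, low for Olig1 and Olig2 and within or next to the other naïve IP libraries for the other members, and the 4 naïve INPUT and 4 stress INPUT points lie close together for Zbtb20.

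In stressed mice the same 8 members passed the test for a higher level in IP, where 23.6% of 13333 genes did (3143 higher and 8332 lower, or 5446 and 5524 with median ratio scaling). IP and INPUT did not overlap for these 8 members, against 22.4% of genes that lay higher in IP without overlap. The log2 ratios were 3.58 for Zbtb20, 2.83 for Nfia, 2.61 for Pax6, 2.01 for Emx2, 1.92 for Lhx2, 1.29 for Nfib and 1.16 for Olig1. Their order was that of naïve mice except that Nfib stood above Olig1. Nfix was at 0.05 (95% interval -0.15 to 0.26, adjusted p = 0.6, limma). Olig2 was at 27.0, 36.3, 27.5 and 27.1 CPM in stress IP and at 23.8, 22.0, 21.0 and 20.0 CPM in stress INPUT, a 1.35-fold ratio (log2 0.43, SE 0.11, adjusted p = 0.0023, limma). All 4 IP libraries were above all INPUT libraries, by as little as 27.0 against 23.8 CPM. This call was lost when all 16 libraries shared 1 estimate of the spread (adjusted p = 0.073, limma).

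Levels of different genes were compared per kb of annotated exons. In naïve IP, Olig1 (61.4 ± 10.2 CPM per kb, SD, n = 4) and Lhx2 (60.2 ± 2.80) were highest, and their libraries overlapped. Nfix (40.5 ± 3.86), Nfia (36.3 ± 3.06), Nfib (32.4 ± 2.03), Olig2 (24.4 ± 9.31) and Emx2 (22.6 ± 1.13 CPM per kb) followed, each overlapping the next in this order. Zbtb20, at 8.37 ± 0.546 CPM per kb, and Pax6, at 5.61 ± 0.349 CPM per kb, were lowest and apart from each other. In naïve INPUT the order was different: Nfix led with 36.6 ± 1.88 CPM per kb, Olig1 came next with 25.0 ± 1.46, and Lhx2 (15.1 ± 1.40) overlapped Nfib (13.6 ± 0.454 CPM per kb). Olig2 was at 9.81 ± 1.55 CPM per kb in naïve INPUT, Emx2 (5.23 ± 0.382) and Nfia (5.21 ± 0.588 CPM per kb) overlapped, and Zbtb20, with 0.618 ± 0.0411 CPM per kb, was the lowest of the 9. The exons were those of all annotated transcripts together, 30.7 kb for Zbtb20. The part of this length in its low level per kb was not tested.

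Other genes of the same families and pathways gave a setting for the members. Of 20 astrocyte and radial glia factors, all 20 were called higher in naïve IP than in naïve INPUT, with a median log2 ratio of 2.42. The largest were Gli2 at 4.25 and Gli3 at 4.23, which carry the hedgehog signal to the nucleus, Rfx4 at 4.13, and Sox9, which specifies astrocytes, at 4.01. Of 11 tested factors of the oligodendrocyte lineage, 4 were higher in IP and 7 were lower, against 23.7% and 64.0% of all genes. Those higher included Tcf7l2, a Wnt effector, at a log2 ratio of 3.46, and Sox8 and Nkx2-2, both at 1.56. Sox10, which drives myelin genes and keeps the lineage, was at 2.94, 3.90, 1.72 and 3.29 CPM in naïve IP and at 31.2, 36.8, 31.2 and 30.4 CPM in naïve INPUT, a log2 ratio of -3.46. Nkx6-2 was at -3.58 and Zfp536 at -2.84. Among 18 tested forebrain patterning factors 5 were higher in IP, led by Sall3 at 3.44, and 13 were lower, with Emx1 at -4.10, Tbr1, a factor of deep-layer neurons, at -3.84 and Ldb2 at -3.64. For both of these lists the share called lower was near that of all genes. Emx2 and its close relative Emx1 thus stood on opposite sides, and Emx1 was at 1.21 to 1.72 CPM in naïve IP against 21.5 to 28.0 CPM in naïve INPUT.

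Markers of oligodendrocyte precursors and of mature oligodendrocytes were followed beside Olig1 and Olig2. Of 9 precursor markers 8 were lower in naïve IP than in naïve INPUT and 0 were higher, with a median log2 ratio of -2.61. Of all 13339 genes, 64.0% were called lower and 23.7% higher in this comparison, with a median of -0.64. Pdgfra, the growth factor receptor that defines precursors, was at 10.9, 7.75, 17.5 and 9.49 CPM in naïve IP and at 64.8, 67.4, 69.0 and 66.7 CPM in naïve INPUT. Of 11 markers of mature oligodendrocytes 10 were lower and 1, Cnp, was higher, with a median of -3.92. Neither list had a marker at 0 throughout a group. Summed over the 9 precursor markers the level was 51.1 to 60.1 CPM in naïve IP and 225 to 239 CPM in naïve INPUT, and over the 11 mature markers it was 240 to 292 against 1171 to 1386 CPM. Olig1 and Olig2 therefore moved opposite to the summed markers of their lineage between the fractions. The ratio of Olig2 to Sox10 CPM within a library was 20.6 ± 4.69 in naïve IP and 0.764 ± 0.0539 in naïve INPUT (SD, n = 4, exact permutation p = 0.029, two-sided).

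**Figure D3:**
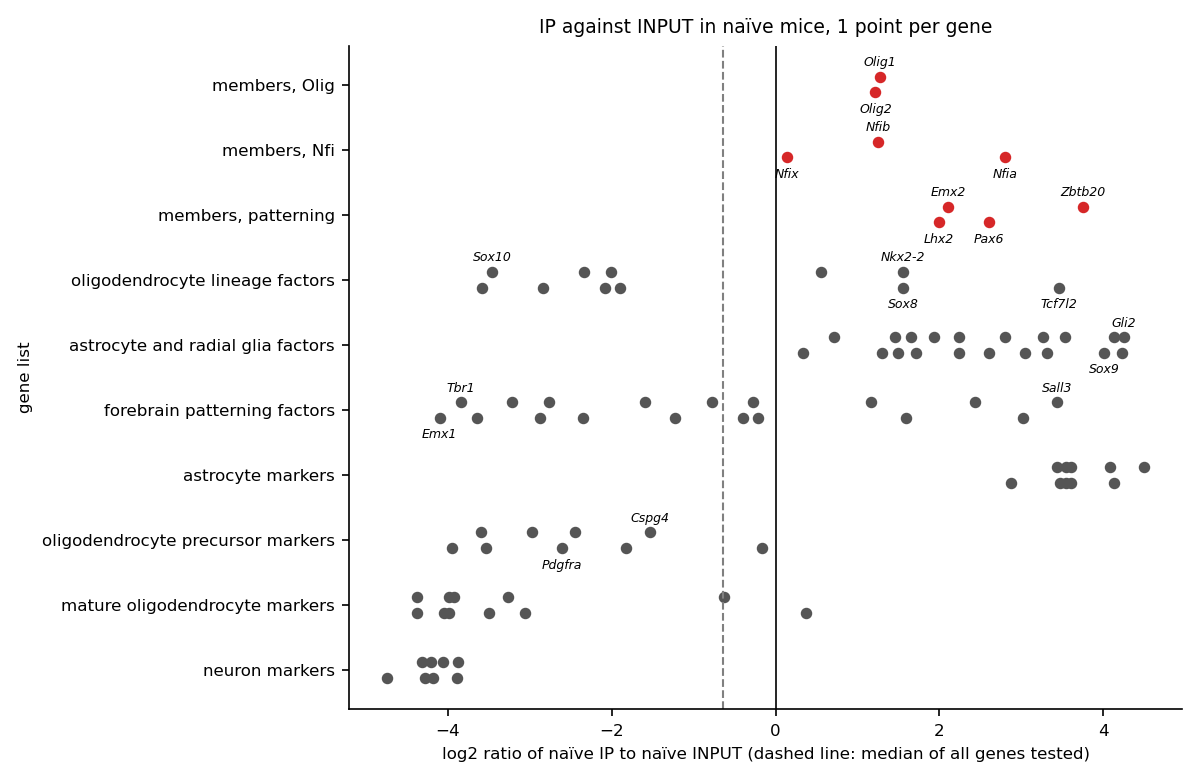
Log2 ratio of naïve IP to naïve INPUT (horizontal axis) for each gene of the 9 members (red) and of 7 gene lists (grey), 1 point per gene. Both Olig genes lie to the right of 0, the markers of oligodendrocyte precursors and, but for 1 gene, of mature oligodendrocytes lie to the left, and all astrocyte markers and all astrocyte and radial glia factors lie to the right.

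The second question was whether acute stress altered these factors. In IP, 0 of the 9 members passed the test, where 0.440% of 12501 genes did, and stress and naïve libraries overlapped for all 9, whereas they did not overlap for 5.00% of genes. All 9 log2 fold changes were below 0, against 51.1% of all genes, with a median of -0.16 against 0.00. At an unadjusted p under 0.05 there were 4 of 9 members, all lower after stress, against 4.82% of genes (limma), and limma-voom on the recovered reads also called 0 of 9 after adjustment. Markers of other cell types also lay below 0 in median in this comparison, with 0 genes past the test: -0.24 over 8 neuron markers, -0.21 over 6 microglia markers and -0.33 over 4 tested endothelial and mural markers. Their summed levels in naïve and stress IP were 452 to 586 and 370 to 530 CPM for neurons, 19.9 to 26.7 and 18.6 to 31.5 CPM for microglia, and, over all 7 markers, 143 to 167 and 107 to 152 CPM for endothelial and mural cells. Their part in the members' values was not tested. Members were chosen with earlier results known, and genes measured in the same libraries are not independent of each other.

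Olig2 had the largest difference. Over the 4 libraries of each group its mean was 61.7 ± 23.6 CPM in naïve mice and 29.5 ± 4.58 CPM after stress (SD). It was at 68.6, 64.2, 29.0 and 85.0 CPM in the naïve libraries and at 27.0, 36.3, 27.5 and 27.1 CPM in the stress libraries. The groups overlapped through 2 libraries, naïve replicate 11 and stress replicate 5. The fitted level was 1.96-fold lower after stress (log2 fold change -0.97, SE 0.26, 95% interval -1.54 to -0.40, unadjusted p = 0.003, adjusted p = 0.22, limma), and the exact permutation p was 0.057 (two-sided, 4 against 4 libraries). Only 0.072% of genes had a log2 fold change as low or lower.

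The call for Olig2 depended on naïve IP replicate 11. When each of the 8 IP libraries was left out in turn, Olig2 passed the test in 1 of 8 fits, that without replicate 11, with a log2 fold change of -1.30 (SE 0.12, adjusted p = 0.00032, limma), where 0.976% of 12495 genes passed. The other 3 naïve IP libraries, at 64.2 to 85.0 CPM, lay above all stress IP libraries, an order that 5.68% of 12501 genes had without replicate 11. Without naïve replicate 13 the log2 fold change was -0.78 (adjusted p = 0.6, limma). With all 8 libraries, Olig2 also passed when libraries were weighted by their quality (log2 fold change -1.13, adjusted p = 0.02, limma with array weights) and when the spread was estimated from all 16 libraries (-0.97, adjusted p = 0.038, limma). The adjusted p over the settings that kept all libraries ran from 0.02 to 0.75.

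**Figure D4:**
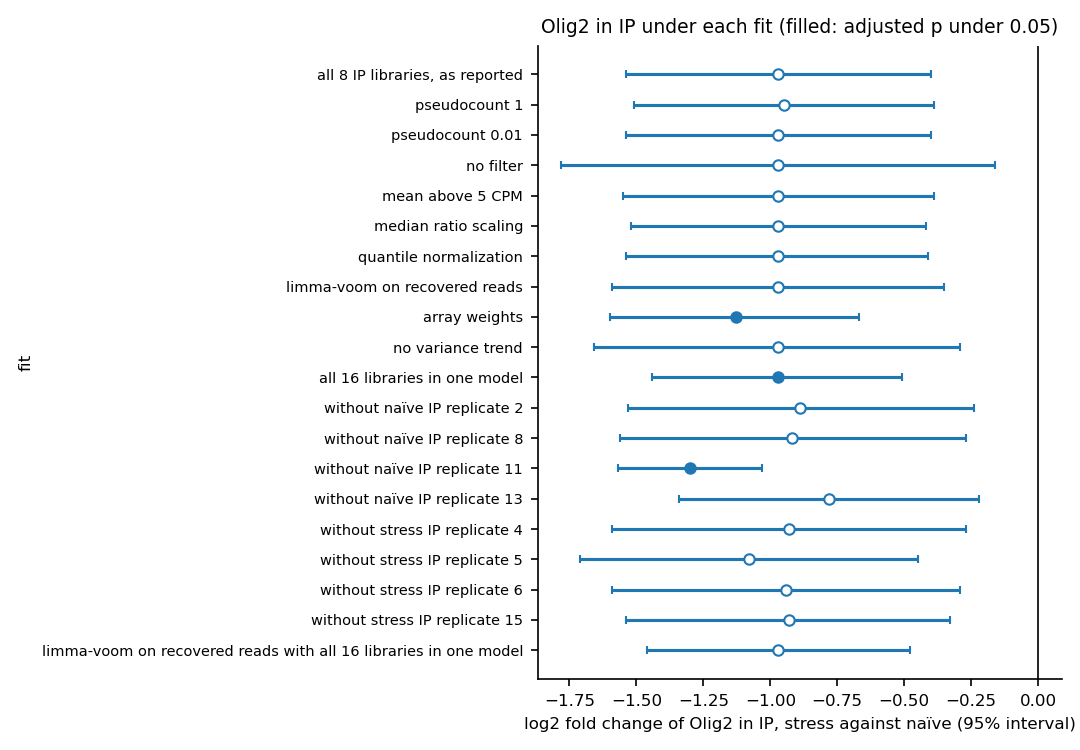
Log2 fold change of Olig2 in IP, stress against naïve (horizontal axis), with its 95% interval, under each fit named on the vertical axis. Filled points have an adjusted p under 0.05, and the values run from -1.30 without naïve replicate 11 to -0.78 without naïve replicate 13, all below 0.

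Replicate 11 was the lowest naïve IP library for both Olig genes, while markers of their lineage lay on either side. Its Olig1 level was 99.9 CPM, against 141, 143 and 147 CPM in replicates 13, 8 and 2. Its summed precursor markers were 60.1 CPM, above the 51.1 to 54.7 CPM of replicates 2, 8 and 13. This higher sum came from Pdgfra alone, at 17.5 CPM the highest of the 8 IP libraries. Pdgfra was at 10.9, 7.75 and 9.49 CPM in replicates 2, 8 and 13, and the remaining precursor markers together did not stand out in replicate 11. Its summed mature oligodendrocyte markers, at 240 CPM, lay below the 268 to 292 CPM of the other naïve replicates, and its Sox10, at 1.72 CPM, was the lowest naïve value. Its astrocyte markers summed to 99206 CPM, within the 95077 to 99519 CPM of the other naïve IP libraries. Between stress and naïve IP, 0 markers of precursors, mature oligodendrocytes or astrocytes passed the test, where 0.440% of 12501 genes did. The summed precursor markers were 52.4 to 67.5 CPM and the mature ones 236 to 312 CPM after stress. Gene by gene, the median log2 fold change was -0.20 over 7 tested precursor markers and -0.06 over 9 tested mature ones. Vcan, with a log2 fold change of 0.40, was the only tested precursor marker above 0. Sox10 had a log2 fold change of -0.52 (SE 0.33, adjusted p = 0.73, limma), with overlapping groups. The part of these markers and of Sox10 in the Olig2 difference was not tested.

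Olig1, the neighbour of Olig2, was at 123, 139, 120 and 91.3 CPM in stress IP and at 147, 143, 99.9 and 141 CPM in naïve IP. The groups overlapped broadly, with a log2 fold change of -0.16 (95% interval -0.47 to 0.14, adjusted p = 0.8, limma). The ratio of Olig2 to Olig1 was 0.466, 0.450, 0.290 and 0.601 in naïve IP and 0.218, 0.261, 0.230 and 0.297 in stress IP, again overlapping through naïve replicate 11 (exact permutation p = 0.057, two-sided, n = 4). In stress INPUT this ratio was 0.415 ± 0.0231, above that of every stress IP library (SD, n = 4, exact permutation p = 0.029, two-sided).

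The other members differed little between stress and naïve IP. Pax6 was at 54.9, 55.6, 55.3 and 62.7 CPM after stress and at 70.5, 63.7, 61.1 and 67.2 CPM in naïve IP. Stress replicate 15 alone reached into the naïve range, and the log2 fold change was -0.20 (95% interval -0.35 to -0.05, adjusted p = 0.42, limma). Nfix was at 251, 217, 281 and 276 CPM after stress and at 268, 285, 303 and 334 CPM in naïve IP, with a log2 fold change of -0.22 (95% interval -0.41 to -0.02, adjusted p = 0.55, limma). Lhx2 was at 223, 236, 224 and 266 CPM after stress and at 265, 253, 281 and 258 CPM in naïve IP, with a log2 fold change of -0.16 (95% interval -0.30 to -0.02, adjusted p = 0.55, limma). For both genes only part of the stress libraries lay below the naïve range. Nfia was at 390, 302, 377 and 361 CPM after stress (log2 fold change -0.15, 95% interval -0.33 to 0.04), and Zbtb20 was at 254, 209, 242 and 235 CPM (-0.13, 95% interval -0.29 to 0.02). Emx2 was the most variable of the patterning factors after stress, at 71.3, 57.7, 75.2 and 52.7 CPM (-0.09, 95% interval -0.32 to 0.14). Nfib, at 492, 446, 479 and 467 CPM after stress, had the narrowest interval around 0 (-0.04, 95% interval -0.17 to 0.09).

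**Figure D5:**
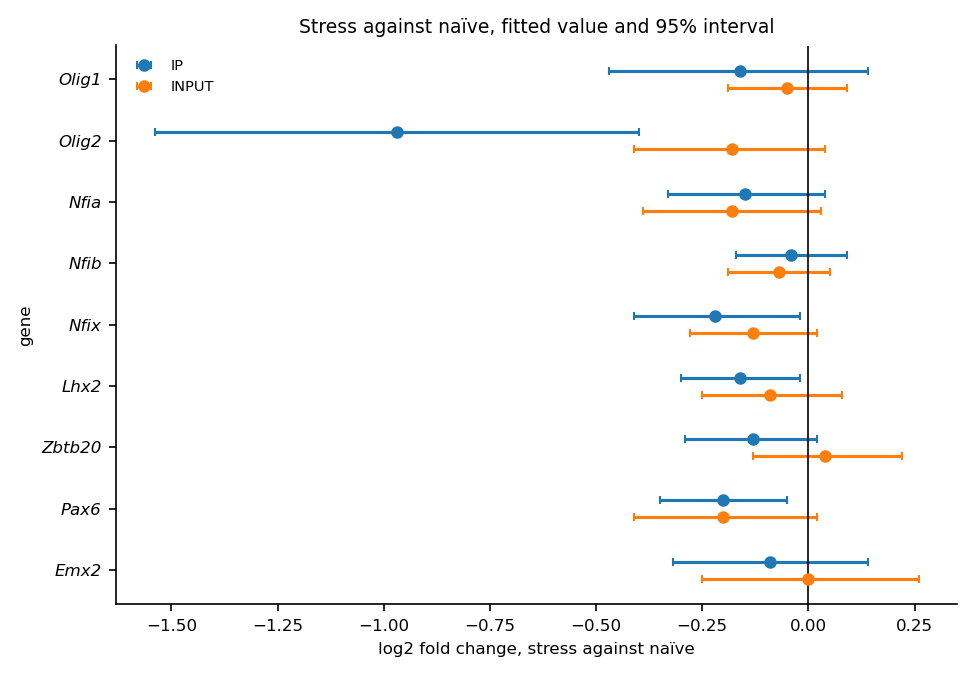
Fitted log2 fold change, stress against naïve (horizontal axis), with its 95% interval, for each factor (vertical axis) in IP (blue) and INPUT (orange), 4 libraries per group. Olig2 in IP, at -0.97, lies apart from the other 17 points, which run from -0.22 to 0.04.

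In INPUT, 0 of the 9 members passed the test, where 0.0442% of 13577 genes did, and 0 of 9 had an unadjusted p under 0.05, against 5.03% of genes. The log2 fold changes ran from -0.20 for Pax6 to 0.04 for Zbtb20, with 7 of 9 below 0 against 51.2% of genes. Olig2 in INPUT was at 23.8, 22.0, 21.0 and 20.0 CPM after stress and at 24.4, 30.5, 21.9 and 22.5 CPM in naïve mice. These groups overlapped, with a log2 fold change of -0.18 (95% interval -0.41 to 0.04, adjusted p = 0.99, limma). Olig1 was at 56.9, 50.5, 49.5 and 52.3 CPM in stress INPUT, Nfia at 44.6, 56.7, 55.1 and 44.4 CPM and Pax6 at 8.72, 9.10, 10.4 and 8.94 CPM, each overlapping the naïve INPUT values given before. Nfib was at 177 to 205 CPM, Nfix at 213 to 269 CPM, Lhx2 at 56.9 to 66.8 CPM, Zbtb20 at 18.7 to 21.0 CPM and Emx2 at 12.2 to 17.9 CPM in stress INPUT.

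An interaction term, which compares the effect of stress in IP with that in INPUT, called 0 of the 9 members, where 0.0225% of 13341 genes passed, and 1 of 9, Olig2, at an unadjusted p under 0.05, against 4.71% of genes. The difference for Olig2 was -0.79 on the log2 scale (SE 0.31, 95% interval -1.44 to -0.13, unadjusted p = 0.021, adjusted p = 0.98, limma). Without naïve IP replicate 11, the naïve IP library lowest in Olig2, it was -1.11 (SE 0.17, adjusted p = 0.0084, limma). In that fit 0.209% of 13373 genes passed, and it was the 1 of 16 leave-one-out fits in which Olig2 passed. For the other 8 members the difference lay between -0.17 for Zbtb20 and 0.03 for Nfib.

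Among the other listed factors, 4 passed the stress test in IP, where 0.440% of 12501 genes did. The lists were chosen with earlier results of these data known. Sox9 fell by 0.65 on the log2 scale, from 291, 343, 295 and 348 CPM to 200, 181, 199 and 232 CPM (adjusted p = 0.0062, limma). Sox2 fell by 0.52 (adjusted p = 0.04, limma) and Sox21 by 0.45 (adjusted p = 0.032, limma), and these 3 were the called genes among 20 astrocyte and radial glia factors. Otx1, a homeobox gene of the forebrain, fell by 0.61 (adjusted p = 0.018, limma), as 1 of 17 tested patterning factors, while 0 of 9 tested oligodendrocyte lineage factors passed. In INPUT 0 genes of these lists passed, where 0.0442% of 13577 genes did. The log2 fold changes there were -0.55 for Sox9 (adjusted p = 0.19, limma), -0.24 for Sox2 and -0.26 for Sox21. For Sox9 the groups did not overlap, at 16.1 to 22.3 CPM in naïve and 12.0 to 15.8 CPM in stress INPUT. In 1.44% of genes stress INPUT lay lower without overlap. Otx1 averaged 5.09 CPM in naïve INPUT and 3.51 CPM in stress INPUT. The median log2 fold change in IP was -0.09 over the astrocyte and radial glia factors, -0.25 over the patterning factors and -0.18 over the oligodendrocyte lineage factors, against 0.00 over all genes.

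The genes whose levels followed Olig2 most closely over the 8 IP libraries were Rassf10, Fam181a, Jun, Trib2 and Adamts4. Likeness was the root mean square difference of log2 values, each gene centred on its own mean, over 12500 genes. It was 0.24 for Rassf10, 0.27 for Fam181a, 0.28 for Jun and Trib2 and 0.29 for Adamts4, against 0.65 for the spread of Olig2 around its own mean. Trib2 was at 133, 123, 74.8 and 140 CPM in naïve IP replicates 2, 8, 11 and 13 and at 63.9, 76.8, 69.1 and 87.3 CPM in stress IP. Jun, a subunit of the AP-1 factor, was at 93.6, 66.4, 55.8 and 91.3 CPM in naïve IP and at 37.6, 47.5, 39.0 and 46.4 CPM in stress IP, and it was the 1 gene of these 5 that passed the stress test (log2 fold change -0.82, adjusted p = 0.044, limma). Since the 5 genes were chosen for likeness to Olig2 in these libraries, a low replicate 11 and lower stress libraries follow from the choice. Olig1 stood at rank 224 with 0.50, and Pax6 at rank 931 with 0.56.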

How the data were processed

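RNA from IP and INPUT libraries was prepared by the authors with ribosomal RNA removal and a TruSeq kit, sequenced in a single pool, aligned to mm10 with STAR and counted per RefSeq gene with HTSeq from uniquely mapped reads. The deposited values are log2 CPM per gene, with a floor of -6.40 for 0 reads. They were returned to CPM, and the low values gave whole reads for 100.0% of entries within a tolerance of 0.05, so that the number of reads on genes per library was known.

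Levels were tested as log2(CPM + 0.1) with limma 3.58.1 in R 4.3.3 with a variance trend, keeping genes that averaged more than 1 CPM over the 8 libraries of a comparison (16 for the difference between stress effects), with Benjamini-Hochberg adjustment over all genes and a threshold of 0.05. A fold change is on this scale and understates changes of low genes. The scripts were tested on simulated data. The tissue of each animal was homogenized separately. Single ratios were compared by exact permutation, two-sided. Alternatives were another pseudocount, filter, scaling or variance model, limma-voom on the recovered reads, and leaving out each library. Gene positions, exon lengths and overlaps are from GENCODE M21 on GRCm38.

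The members and lists were chosen with earlier results of these data known. The rule for naming genes was all 9 members, list genes past the threshold in a stress comparison, otherwise at most 4 per list with the largest IP to INPUT difference in naïve mice, and the 5 genes most like Olig2. Outside it, chosen after their values were seen, are Sox8, Nkx2-2, Nfic, Olig3, Pdgfra, Vcan and Cnp.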

Additional observations from a re-analysis of the deposited data

Results flagged for a closer look

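Of 36 member and group combinations, 3 had a library far from the other 3 of its group (Dixon's 95% limit), where chance gives about 1.8, or 1 in 20. Olig1 in naïve IP replicate 11 was at 99.9 CPM, the rest of that group at 141 to 147 CPM. Olig2 in stress IP replicate 5 was at 36.3 CPM, with the other stress IP libraries at 27.0 to 27.5 CPM. Pax6 in stress IP replicate 15 was at 62.7 CPM, with the other stress IP libraries at 54.9 to 55.6 CPM. Olig2 in naïve IP replicate 11 did not meet this limit, since the other naïve IP libraries were themselves spread from 64.2 to 85.0 CPM.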

How the results depend on the processing

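No paired analysis was possible because no replicate number is shared between groups. The edgeR alternative was not run, and limma-voom was the model used on the recovered reads. The number of all genes past the threshold for stress in IP, 55, became 2 with no filter on low values, 143 with array weights, 19 with no variance trend, 124 with all 16 libraries in one model, 112 with limma-voom over all 16 libraries (chosen after seeing the data), and 17 (without naïve replicate 13) to 122 (without naïve replicate 11) on leaving out 1 library. Members past it went from 0 to 1, Olig2, with array weights (-1.13) and with all 16 libraries in one model (-0.97), and ranged from 0 to 1 on leaving out 1 library, with Olig2 at -1.30 to -0.78. With limma-voom over all 16 libraries Olig2 did not pass (adjusted p = 0.055, limma-voom). For stress in INPUT the 6 genes became 1 with no filter, 50 with array weights, 0 with no variance trend (727 at an unadjusted p under 0.05, limma), 2 with all 16 libraries, and 1 to 32 on leaving out 1 library (32 without naïve replicate 14). For the difference of the stress effects the 3 genes became 19 with array weights and 2 to 28 on leaving out 1 library, and members 0 to 1, both highest without naïve IP replicate 11. For IP over INPUT, members past the threshold were 8 to 9 on leaving out 1 library in naïve mice.

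Quantile normalization turned the sign of Emx2 in INPUT (0.00) and of the difference for Pax6 (0.02). Leaving out 1 library turned signs only of values near 0, with ranges of -0.07 to 0.00 for Nfib in IP, 0.00 to 0.07 for Zbtb20 and -0.06 to 0.12 for Emx2 in INPUT, -0.02 to 0.13 for Nfix in stressed IP over INPUT, and, for the difference of the stress effects, -0.25 to 0.00 for Olig1, -0.04 to 0.11 for Nfia, -0.01 to 0.07 for Nfib and -0.05 to 0.05 for Pax6. Of 909 values of the members under the alternatives, 872 kept direction and side of the threshold, 25 changed sign, 10 passed the threshold newly and 2, both Olig2 in stressed IP over INPUT, lost it. Where not stated, the cause was not tested.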
